A study of Mus musculus with 12 samples.

Results

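The transcripts of 9 insulin signalling components were followed in interscapular BAT of mice that lack Txnip, the thioredoxin-interacting protein, an arrestin-domain protein known to restrain glucose uptake. The set runs from the receptor (Insr) through the receptor substrates (Irs1 and Irs2), the regulatory subunit of PI3K (Pik3r1), the kinases Akt1 and Akt2 and the Rab GTPase-activating proteins Tbc1d1 and Tbc1d4 to the transcription factor Foxo1. The members were chosen by symbol, and all 9 were found among the 25124 genes of the expression table. The 12 libraries came from 10-week-old male mice on a C57B/6J background, with 3 libraries in each of 4 groups. WT or Txnip-/- mice were kept for 1 week at 23 °C (room temperature, RT) or 30 °C (thermoneutrality, TN), where a mouse needs little heat from its BAT. The 4 groups, written RT or TN before the genotype, share the strain background, sex and age, and whole tissue was used, so that fewer cells of a type and less RNA per cell cannot be told apart. The libraries were taken as separate mice, as the labels count them, and p-values measure the spread between these samples.

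Insulin binds its receptor, which phosphorylates the Irs proteins. These recruit PI3K through its regulatory subunit, the lipid that PI3K makes brings Akt to the membrane, and Akt then acts on several branches. By phosphorylating Tbc1d1 and Tbc1d4 it releases Rab GTPases that move vesicles carrying the glucose transporter GLUT4 to the cell surface, and by phosphorylating Foxo1 it sends that factor out of the nucleus and turns its target genes off. BAT is an insulin-sensitive tissue that takes up glucose both on insulin and on sympathetic stimulation. Much of this pathway is set by phosphorylation, which RNA does not show, so the values here are transcript levels alone.

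Of all pairs of members, Irs1 and Irs2 had the highest positive correlation over the RT libraries, given further on, and their promoters are shown for that reason, a choice made after the values were seen. The windows are the 250 bases before the RefSeq start site (GRCm38.p6), both on the minus strand and printed 5′ to 3′ toward the gene, Irs1 at chr1:82291440-82291689 and Irs2 at chr8:11008930-11009179. Capitals mark CACGTG, the E-box read by bHLH factors, and TGTTTT, a form of the core of the insulin response element bound by Foxo proteins. Both strands were searched.
Irs1: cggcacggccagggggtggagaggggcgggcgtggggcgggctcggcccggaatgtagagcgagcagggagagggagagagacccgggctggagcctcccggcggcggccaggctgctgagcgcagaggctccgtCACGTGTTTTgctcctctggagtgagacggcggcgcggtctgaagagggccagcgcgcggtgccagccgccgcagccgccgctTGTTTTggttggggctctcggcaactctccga
Irs2: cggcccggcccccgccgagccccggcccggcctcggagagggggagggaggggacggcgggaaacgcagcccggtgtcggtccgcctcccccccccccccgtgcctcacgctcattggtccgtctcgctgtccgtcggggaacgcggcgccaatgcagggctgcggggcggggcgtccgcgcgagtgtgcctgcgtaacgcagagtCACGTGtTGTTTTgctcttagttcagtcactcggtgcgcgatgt
In the Irs1 window CACGTG lies at -115 to -110 from the start site and overlaps the TGTTTT at -111 to -106, and a further TGTTTT lies at -32 to -27. In the Irs2 window CACGTG lies at -44 to -39 with TGTTTT next to it at -37 to -32. Of the 14 windows of the 9 genes, 2 held CACGTG, those of Irs1 and Irs2, against 6.02% of 32851 promoter windows of that length. TGTTTT was in 5 of the 14 (1 each of Irs1, Irs2, Akt1, Akt2 and Tbc1d4) against 19.8% of all windows, and the longer forkhead motif TGTTTAC was in 1, of Akt1, against 3.17%. A further motif that was searched for, TGACGTCA, was in 0 of the 14, against 1.55%. These matches describe letters in the windows and show no binding.

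Levels were compared in TPM, the authors' values scaled for transcript length and library size, from libraries of 29.9M to 47.4M reads. Akt2, the Akt isoform linked to insulin-stimulated glucose uptake, was the most abundant of the 9, with a mean of 112 TPM over the 12 libraries, and was above Akt1 in 12 of 12 libraries with no overlap. Akt1, the isoform linked to growth and survival, followed at 61.3 TPM. Foxo1 (36.0 TPM) and Pik3r1 (35.0 TPM) came next and could not be ordered, since Foxo1 was above Pik3r1 in 6 of 12 libraries. Tbc1d4 had a mean of 22.2 TPM, Insr 18.6 TPM and Irs2 18.3 TPM, and the ranges of these 3 genes overlapped. Insr was above Irs2 in 9 of 12 libraries, with medians of 18.1 and 12.2 TPM. Irs1 (7.35 TPM) was below Irs2 in 11 of 12 libraries, and Tbc1d1 was lowest at 3.75 TPM. The spread over the 12 libraries differed between members. The highest library was 1.27 times the lowest for Akt1, 1.31 times for Tbc1d1, 1.49 times for Akt2 and 1.6 times for Insr, but 2.66 times for Tbc1d4, 3.26 times for Irs1, 3.29 times for Foxo1, 4.86 times for Pik3r1 and 15.2 times for Irs2.

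**Figure D1:**
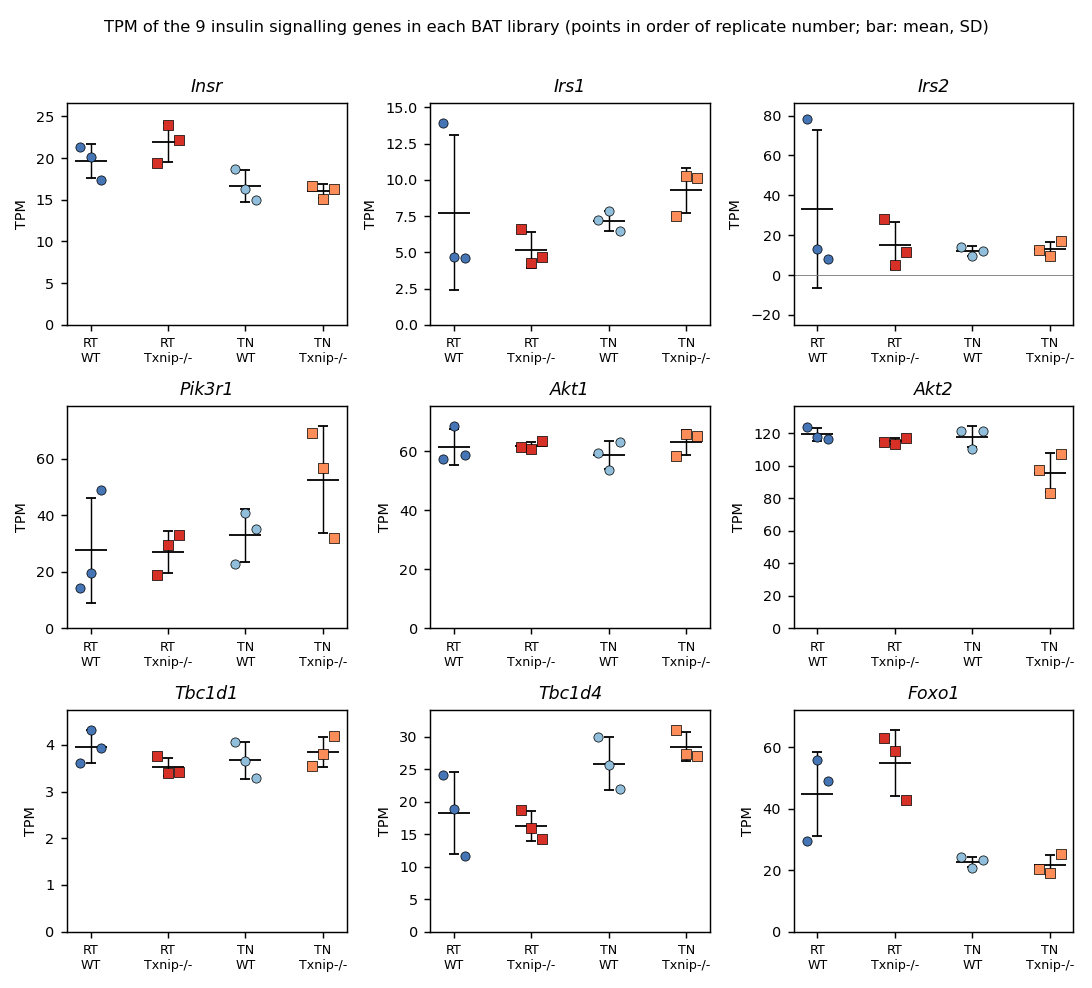
TPM of the 9 genes (y axis, from 0 except for Irs2, whose axis starts below 0 to hold its error bar) in the 4 groups (x axis), with 1 point per library in order of replicate number and bars for the mean and SD of 3 libraries. Foxo1 is lower in all 6 TN libraries than in all 6 RT libraries, Akt2 is lowest in TN Txnip-/-, and 1 RT WT library stands above the rest in Irs1 (13.9 TPM) and Irs2 (78.5 TPM).

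The labels were checked on Txnip, which was at 564 to 694 TPM in RT WT and 1072 to 1238 TPM in TN WT, against 24.8 to 35.4 TPM in RT Txnip-/- and 10.5 to 14.4 TPM in TN Txnip-/-. Adipocyte markers were high in every group (summed TPM of 5 genes 15390 to 21180). The summed TPM of 5 brown adipocyte markers fell from 6462 to 6857 in RT WT, through 4811 to 6460 in RT Txnip-/- and 3247 to 3434 in TN WT, to 1833 to 2185 in TN Txnip-/-. The summed TPM of 6 macrophage markers went the other way, from 46.7 to 50.5 in RT WT, 80.6 to 142.5 in RT Txnip-/- and 109.9 to 200.3 in TN WT to 321.1 to 443.1 in TN Txnip-/-. The sums of 5 fibroblast or preadipocyte markers were at 163.9 to 204.3, 197.4 to 243.2, 273.0 to 375.7 and 640.9 to 652.2 in the same order. Those of 5 endothelial markers were at 192.7 to 244.1 over the RT libraries and 278.2 to 347.2 over the TN libraries. A sum follows its most abundant genes, and single markers are not given here. The part of these cells in the results that follow was not tested. The RT WT library with the number 1 stood apart from the other RT libraries in several members, as did the RT Txnip-/- library with that number in Irs2, and the results they change are given with and without them.

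Loss of Txnip at RT moved none of the 9 transcripts past the test. Of 11980 genes tested with limma on log2(TPM + 1), 1.49% were called, meaning a log2 fold change beyond 0.32 in either direction besides an adjusted p under 0.05, and 0 of 9 members were. Their adjusted p-values ran from 0.551 to 0.959, 0 of 9 reached an unadjusted p under 0.05 (16.0% of all genes did), and the groups overlapped for every member, where 22.6% of all genes had groups that did not overlap. The intervals set how much of a difference these libraries could show. For Akt2, with 124, 118 and 116 TPM in RT WT and 115, 114 and 117 TPM in RT Txnip-/-, the 95% interval of the log2 fold change was -0.17 to 0.069. For Akt1 it was -0.17 to 0.19, for Insr -0.098 to 0.39 and for Tbc1d1 -0.35 to 0.089. For Foxo1 it was wider, -0.25 to 0.89, and for Irs2 it spanned -2.72 to 1.31, so that a change of either sign in Irs2 was not detectable here.

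Irs2 at RT shows where that width came from. Irs2 had 78.5, 13.0 and 7.84 TPM in RT WT and 28.1, 5.16 and 11.6 TPM in RT Txnip-/-. The first library of each group was 7.54 times the mean of the other 2 in RT WT and 3.35 times in RT Txnip-/-. Irs1, the other main substrate, had 13.9, 4.67 and 4.64 TPM in RT WT and 6.61, 4.27 and 4.65 TPM in RT Txnip-/-, so the same libraries were highest, 2.99 and 1.48 times the mean of the other 2. Over the 6 RT libraries the log2(TPM + 1) values of Irs1 and Irs2 had an r of 0.949 (n = 6, as a description), which was 0.88 over the 4 RT libraries not numbered 1, and over the 6 TN libraries 0.081. Without the RT WT library numbered 1, the log2 fold change of Txnip-/- against WT at RT went from -0.71 to 0.24 for Irs2 and from -0.36 to 0.11 for Irs1, neither called. Without the libraries numbered 1 of both genotypes it was -0.33 for Irs2 and -0.050 for Irs1, so the sign in these libraries depended on which were left out.

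Pik3r1, the subunit that docks PI3K on the Irs proteins, was lowest in the RT libraries where Irs2 was highest. It had 14.2, 19.6 and 48.9 TPM in RT WT and 18.8, 29.3 and 32.8 TPM in RT Txnip-/-, with the libraries numbered 1 lowest in both groups. Its r over the 6 RT libraries was -0.797 with Irs2 and -0.988 with Tbc1d4, and over the 6 TN libraries -0.549 and 0.194. Over the 4 RT libraries not numbered 1 it was -0.402 with Irs2 and -0.993 with Tbc1d4, so the value with Irs2 rests largely on the libraries numbered 1. These points share their library and its depth, and the values are a description. The TPM of Pik3r1 came from NM_001024955, a short transcript that spans 11.9 kb of a gene of 87.5 kb, so a change between its start sites cannot be told apart from a change of the whole gene. Foxo1 at RT had 29.6, 55.7 and 48.8 TPM in WT and 63.0, 58.8 and 42.8 TPM in Txnip-/-. The RT WT library that was highest in Irs2 was the lowest in Foxo1, at 0.565 times the mean of the other 2.

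**Figure D2:**
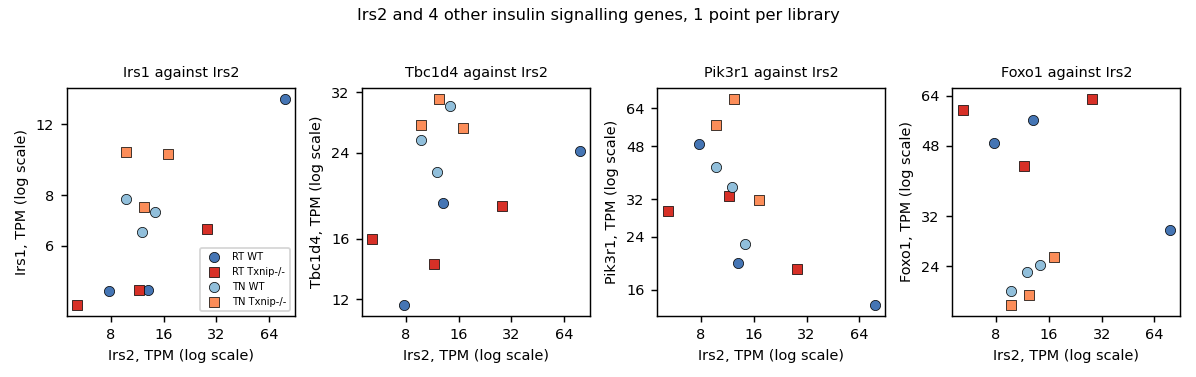
Irs2 (x axis, TPM on a log scale) against Irs1, Tbc1d4, Pik3r1 and Foxo1 (y axes, TPM on log scales), with 1 point per library and colour and shape for the group. The library at 78.5 TPM of Irs2 is RT WT 1, which is highest in Irs1 and lowest in Pik3r1, and the TN libraries hold a narrow range of Irs2 from 9.74 to 17.05 TPM.

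Loss of Txnip at TN left Akt2 as the member nearest to the test. Akt2 had 122, 111 and 121 TPM in WT against 97.6, 83.1 and 107 TPM in Txnip-/-, so all 3 Txnip-/- libraries were below all 3 WT libraries. The log2 fold change was -0.30 (SE 0.099, 95% interval -0.53 to -0.074) with an adjusted p of 0.1 by limma over 12891 genes, which is not a call. In the fit of all 12 libraries its adjusted p was 0.0335, and it missed the call on the fold limit alone. With each library left out the value lay between -0.38 and -0.20, the latter without TN Txnip-/- replicate 2. Of the 9 members, 0 were called higher and 0 lower, where 6.49% of all genes were called higher and 2.17% lower. Groups did not overlap for 1 of 9 members, Akt2, against 31.1% of all genes, and 2 of 9 had an unadjusted p under 0.05, Akt2 and Irs1, against 25.6% of all genes.

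Irs1 was the member of that pair with the opposite sign. It had 7.26, 7.82 and 6.47 TPM in WT against 7.50, 10.3 and 10.1 TPM in Txnip-/-, and 1 Txnip-/- library lay within the WT range. The log2 fold change was 0.32 (SE 0.12) with an adjusted p of 0.15 by limma. Pik3r1 had 22.7, 40.8 and 35.1 TPM in WT against 69.1, 56.6 and 31.9 TPM in Txnip-/-. Its log2 fold change of 0.63 was the widest of the 9 at TN, but the groups overlapped and the 95% interval was -0.05 to 1.31. Irs2 at TN was close between the genotypes, at 12.02 ± 2.28 TPM (mean ± SD of 3 libraries) in WT and 13.04 ± 3.69 TPM in Txnip-/-, with an interval of -0.36 to 0.54. Insr, Akt1, Tbc1d1, Tbc1d4 and Foxo1 had log2 fold changes from -0.074 to 0.14 at TN, with adjusted p-values of 0.493 or above.

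The genotype effect over both temperatures and its dependence on temperature were then asked of all 12 libraries. For the mean genotype effect 0 of 9 members were called, against 7.84% of all genes. Akt2 had the lowest adjusted p of the 9 by limma, 0.0635, with a log2 fold change of -0.18 (95% interval -0.30 to -0.05). The adjusted p was 0.0492 with upper-quartile normalization, 0.0397 with median centring and 0.0466 with the replicate block, where Akt2 missed the call on the fold limit alone. Over all alternatives run it lay between 0.0175 and 0.197. For the interaction 0 of 9 members passed an adjusted p of 0.05, against 0.00801% of all genes, which is 1 gene of 12486. Akt2 again had the lowest adjusted p of the 9, 0.391, with a log2 difference of -0.25 between the genotype effects at TN and at RT (95% interval -0.50 to -0.0027). A genotype effect on Akt2 particular to TN was therefore not shown.

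Between the temperatures Foxo1 was the member called in both genotypes. Foxo1, on chromosome 3 from 52268337 to 52350109 on the plus strand (mm10), had 29.6, 55.7 and 48.8 TPM in RT WT and 24.1, 20.81 and 23.2 TPM in TN WT. In Txnip-/- mice it had 63.0, 58.8 and 42.8 TPM at RT and 20.4, 19.2 and 25.3 TPM at TN. Every TN library was thus below every RT library, in both genotypes. Between TN and RT the log2 fold change was -0.90 (SE 0.21) in WT, with an adjusted p of 0.00423 by limma, and -1.30 (SE 0.21) in Txnip-/-, with an adjusted p of 0.000391. The call held under every scaling and with each library left out, with a log2 fold change between -1.17 and -0.72 in WT and between -1.49 and -1.19 in Txnip-/-. The difference between these effects was -0.39 (95% interval -1.04 to 0.25) and did not pass the test. An annotated transcript, Gm20402, overlaps Foxo1 exons on the opposite strand, as Gm9747 does for Irs1, and whether counting used the strand is not given in the sources used here.

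**Figure D3:**
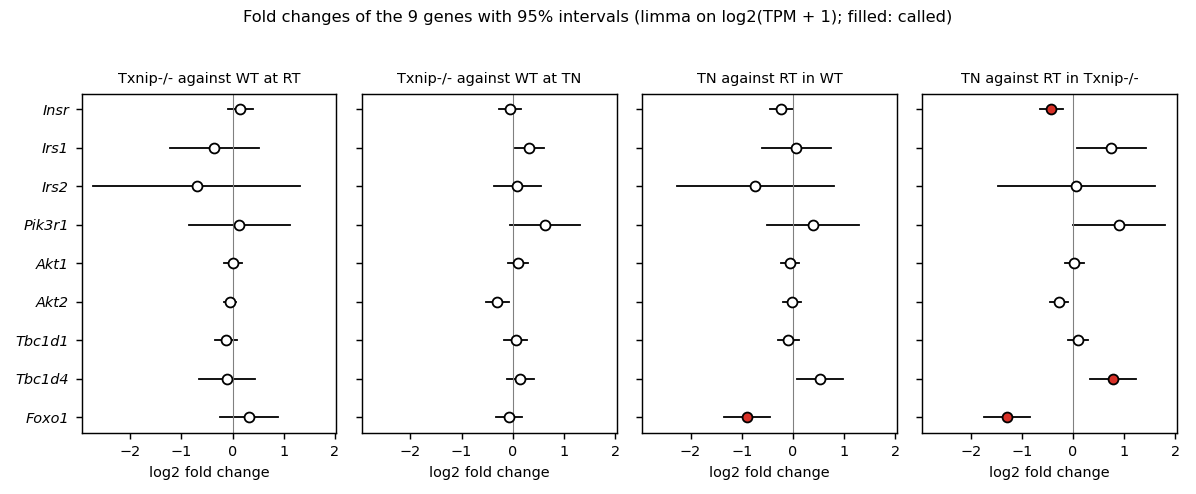
Log2 fold change (x axis) of each of the 9 genes (y axis) in the 4 comparisons, with 95% intervals from limma on log2(TPM + 1) and filled points for called genes. Foxo1 is called lower at TN in WT (-0.90) and in Txnip-/- (-1.30), Insr lower (-0.42) and Tbc1d4 higher (0.78) at TN in Txnip-/-, and no point is filled in either genotype comparison.

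In WT mice Foxo1 was the sole member called between TN and RT. Of the 9 members 0 were called higher, where 31.4% of 12486 genes were, and 1 was called lower, where 6.39% were. The groups of 1 member, Foxo1, did not overlap, against 57.5% of all genes. The median gene had a log2 fold change of 0.18 at TN in WT and 0.15 in Txnip-/-, while the median over the 9 members was -0.064 and 0.064. Centring each library on its median gene changed the split of all calls from 3919 higher and 798 lower to 1926 and 1841 in WT, and from 3858 and 1033 to 2294 and 2435 in Txnip-/-. It also brought Insr into the WT calls, with a log2 fold change of -0.41 and an adjusted p of 0.00959 by limma, and upper-quartile normalization did so at -0.32 and 0.0241. On TPM as deposited Insr had 21.4, 20.1 and 17.4 TPM in RT WT and 18.7, 16.2 and 15.0 TPM in TN WT, with a log2 fold change of -0.23 and an adjusted p of 0.0849.

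In Txnip-/- mice Insr and Tbc1d4 were called as well as Foxo1. Of the 9 members 1 was called higher, where 30.9% of all genes were, and 2 were called lower, where 8.27% were. Groups did not overlap for 5 of 9, Insr, Irs1, Akt2, Tbc1d4 and Foxo1, against 61.1% of all genes. Insr (chromosome 8, 3150922 to 3279617, minus strand) had 19.4, 24.0 and 22.2 TPM at RT and 16.7, 15.1 and 16.3 TPM at TN. The 3 TN libraries were below the 3 RT libraries, with a log2 fold change of -0.42 (SE 0.10) and an adjusted p of 0.00503 by limma. Its effect in Txnip-/- differed from that in WT by -0.20 (95% interval -0.51 to 0.12), so a difference between the genotypes was not shown.

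Tbc1d4, also called AS160, the Akt substrate that holds GLUT4 vesicles inside the cell, was the 1 member called higher at TN, in Txnip-/- mice. Tbc1d4 (chromosome 14, 101442360 to 101609191, minus strand) had 18.7, 15.9 and 14.2 TPM in RT Txnip-/- and 31.1, 27.4 and 27.0 TPM in TN Txnip-/-, with no overlap. This was a log2 fold change of 0.78 (SE 0.21) with an adjusted p of 0.00807 by limma. In WT it had 24.2, 18.9 and 11.7 TPM at RT and 30.0, 25.6 and 21.9 TPM at TN, where the highest RT library lay above the lowest TN library. This came to 0.52 on the log2 scale (SE 0.21), with an adjusted p of 0.0513 by limma. Without the RT WT library numbered 1 it was 0.74 with an adjusted p of 0.00805, a call, and without the TN WT library numbered 3 it was 0.63 with an adjusted p of 0.0445, also a call. Without the RT WT library numbered 3 it was 0.25 with an adjusted p of 0.195, so in WT the value of Tbc1d4 and its call depended on single libraries. The temperature effect on Tbc1d4 in Txnip-/- differed from that in WT by 0.25 (95% interval -0.38 to 0.89), so a difference between the genotypes was not shown. Tbc1d1, the relative of Tbc1d4 more prominent in skeletal muscle, stayed between 3.29 and 4.32 TPM in all 12 libraries, with intervals of -0.29 to 0.11 in WT and -0.10 to 0.30 in Txnip-/-. With median centring Tbc1d1 in WT was at -0.27 with an adjusted p of 0.0291 by limma, and missed the call on the fold limit. Skeletal muscle markers were low in all groups (summed TPM of 6 genes 2.21 to 43.5) and highest in RT Txnip-/-, at 17.9 to 43.5.

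Irs1 and Akt2 also separated by temperature in Txnip-/- mice without being called. Irs1 went from 6.61, 4.27 and 4.65 TPM at RT to 7.50, 10.3 and 10.1 TPM at TN, which is 0.74 on the log2 scale (SE 0.31, adjusted p 0.0616 by limma). Without the RT Txnip-/- library numbered 1 it was 0.90 with an adjusted p of 0.0468, a call, and without RT Txnip-/- replicate 2 it was 0.64 with the highest adjusted p of the 6 such fits, 0.17, while without the RT WT library numbered 1 Irs1 was also called in WT, at 0.53 with an adjusted p of 0.0221. Akt2 had 115, 114 and 117 TPM at RT and 97.6, 83.1 and 107 TPM at TN, with a log2 fold change of -0.27 and an adjusted p of 0.0151 by limma, and missed the call on the fold limit. Akt2 was called with upper-quartile normalization at -0.35, with median centring at -0.46 and without TN Txnip-/- replicate 3 at -0.35. Without TN Txnip-/- replicate 2 it was -0.17 with an adjusted p of 0.0506 by limma. In WT the 95% interval of Akt2 was -0.20 to 0.16. Pik3r1 had a log2 fold change of 0.90 at TN in Txnip-/- (adjusted p 0.0863) and 0.40 in WT (0.44), and without the TN Txnip-/- library numbered 3 it was called in Txnip-/- at 1.22 with an adjusted p of 0.0381. The other 5 such fits of Pik3r1 gave 0.67 to 1.06, none called. Akt1 stayed between 53.7 and 68.3 TPM throughout, with intervals of -0.24 to 0.11 in WT and -0.15 to 0.20 in Txnip-/-. With median centring Akt1 in WT was at -0.25 with an adjusted p of 0.0318 by limma, and missed the call on the fold limit.

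The balance within 3 pairs of related genes was compared as log2 ratios of TPM in each library. The genotype effect was tested over both temperatures and the temperature effect over both genotypes by a two-sided exact permutation test within strata, with 400 relabellings and a smallest p of 0.005, and the 6 tests were adjusted together. Akt2 was 1.73 to 2.15 times Akt1 in RT WT, 1.85 to 1.88 times in RT Txnip-/- and 1.93 to 2.06 times in TN WT, but 1.26 to 1.68 times in TN Txnip-/-. The TN Txnip-/- libraries were thus below those of the other 3 groups. The genotype difference was -0.24 on the log2 scale (exact p = 0.035, adjusted p = 0.105), which does not hold after adjustment. Split by temperature it was -0.062 at RT (exact p = 0.7) and -0.41 at TN (exact p = 0.1, the smallest that 3 against 3 allows).

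Tbc1d4 over Tbc1d1 went from 2.97 to 6.68 times in RT WT and 4.16 to 4.98 times in RT Txnip-/- to 6.66 to 7.38 times in TN WT and 6.45 to 8.77 times in TN Txnip-/-. The temperature difference was 0.68 on the log2 scale (exact p = 0.01, adjusted p = 0.06). The ratio was 0.66 higher at TN in WT and 0.69 higher in Txnip-/-. Irs2 over Irs1 had a mean log2 ratio of 1.58 ± 0.87 in WT and 1.23 ± 0.91 in Txnip-/- at RT, and of 0.73 ± 0.36 in WT and 0.47 ± 0.46 in Txnip-/- at TN (SD, n = 3), and the genotypes overlapped at each temperature. Its temperature difference was -0.80 (exact p = 0.07, adjusted p = 0.14). The other 3 tests had an exact p of 0.245 or above.

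**Figure D4:**
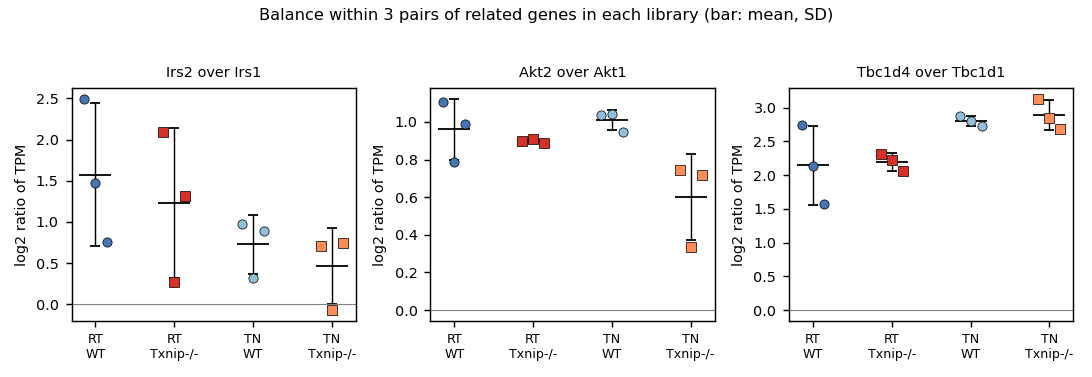
Log2 ratio of TPM (y axis) of Irs2 over Irs1, Akt2 over Akt1 and Tbc1d4 over Tbc1d1 in the 4 groups (x axis), with 1 point per library in order of replicate number and bars for the mean and SD of 3 libraries. Akt2 over Akt1 is lowest in TN Txnip-/- (mean 0.60, against 0.90 to 1.01 in the other groups), and Tbc1d4 over Tbc1d1 is near 2.8 to 2.9 at TN.

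For each member the genes with the most similar pattern were taken by Pearson r of log2(TPM + 1) over the 12 libraries, among 12486 genes, as a description. The gene nearest to Irs2 was 9530052E02Rik (r 0.976, and 0.997 over the 6 RT libraries), whose exons overlap those of Irs2 on the opposite strand. Its TPM, from 0.5 to 10.3, were 8.91 to 16.6% of those of Irs2. Since the use of strand in counting is not given, reads of these 2 transcripts cannot be told apart. The second nearest to Irs2 was Etv3 (r 0.956), and Irs1 was nearest to Fosl2 (0.932) and Jund (0.913), members of the AP-1 family, at 0.64 and 0.604 over the 6 TN libraries. The values over 12 libraries include RT WT 1, highest in Irs1 and Irs2, and were not computed without it. Foxo1 was nearest to Zfp598 (0.971) and Naa50 (0.962), with lower values over the 6 TN libraries (0.477 and 0.678). Tbc1d4 was nearest to Klhl4 (0.98) and Serinc5 (0.973), which were also close within each temperature (0.909 to 0.966). Akt2 was nearest to Rpl39l (0.951) and Ppm1a (0.938), the latter at 0.294 over the 6 RT libraries. Insr was nearest to Tapt1 (0.951) and Hsdl2 (0.92), at 0.73 and 0.552 over the 6 TN libraries, and Pik3r1 to Poglut2 (0.9) and Pde7a (0.881). The steadiest members had the weakest neighbours, with Tnfrsf1a (0.869) and Cstf1 (0.781) for Akt1 and Snx33 (0.822) and Kmt2b (0.82) for Tbc1d1.

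The rest of the pathway was described by 8 lists of 90 further genes, of which 81 were tested at RT and 82 in the other comparisons. At RT 0 of 81 were called between the genotypes, against 1.49% of all genes. At TN 5 of 82 were called higher and 1 lower in Txnip-/-, against 6.49% and 2.17% of all genes, and 76 were not called. In the interaction 0 of 82 passed, against 0.00801%. For the mean genotype effect 6 of 82 were called higher and 1 lower, or 8.54%, against 7.84% of all genes. Between TN and RT 29 of 82 were higher and 7 lower in WT, where 31.4% and 6.39% of all genes were, and 23 were higher and 8 lower in Txnip-/-, where 30.9% and 8.27% were. Over the 82 genes the counts at TN, for the mean genotype effect and in both temperature comparisons were thus near the background, and nothing is read from them about the pathway. With each library centred on its median gene the counts between TN and RT became 14 higher and 13 lower in WT, and 17 and 20 in Txnip-/-.

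Among ligands and receptors, Igf1, the growth factor whose receptor shares the Irs proteins with Insr, was at 6.63 ± 1.1 TPM in WT mice kept at TN against 14.9 ± 3.85 TPM in Txnip-/- (SD, n = 3). It rose by 1.04 on the log2 scale (SE 0.19, adjusted p 0.0161 by limma). Among the brakes at the receptor, Socs3, which targets Irs proteins and blocks cytokine receptors, rose by 0.68 (adjusted p 0.0295), from 1.49 ± 0.151 to 3.04 ± 0.752 TPM. At such low TPM the 1 added before the log makes this value smaller than the means alone would give. Dok1, an adaptor that attenuates signalling from tyrosine kinases, rose by 0.61 (adjusted p 0.0167), from 3.73 ± 0.368 to 6.26 ± 0.894 TPM. Pik3cd, the catalytic PI3K subunit best known from leukocytes, rose by 0.62 (adjusted p 0.0256), from 2.92 ± 0.361 to 5.04 ± 0.885 TPM. These 4 genes moved with the macrophage and fibroblast markers given above, whose summed TPM were also higher in TN Txnip-/- than in TN WT. The sums of 5 B or T lymphocyte markers were 4.70 to 8.31 in TN WT and 8.07 to 11.9 in TN Txnip-/-, with overlap. The part of these cells was not tested. Of the 6 fits that each leave out 1 library, the call was kept in 4 for Igf1, 1 for Socs3, 3 for Dok1 and 2 for Pik3cd. Leaving out TN Txnip-/- replicate 2 ended all 4 calls, and TN Txnip-/- replicate 1 those of Igf1, Dok1 and Pik3cd. TN WT replicate 3 ended those of Socs3, Dok1 and Pik3cd, TN WT replicate 1 those of Socs3 and Pik3cd, and TN WT replicate 2 and TN Txnip-/- replicate 3 that of Socs3 alone. With no filter on low TPM, where 22494 genes shared the adjustment, the calls of Socs3 (adjusted p 0.0772 by limma), Dok1 (0.0526) and Pik3cd (0.0748) were lost, and that of Igf1 was kept.

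The genes known as Foxo1 targets moved in both directions at TN, where Foxo1 itself was lower. Of 12 tested, 5 were called higher and 4 lower in WT, where 31.4% and 6.39% of all genes were. In Txnip-/- 4 were called higher and 4 lower, where 30.9% and 8.27% of all genes were. Pck1, the enzyme of gluconeogenesis and, in fat, of glyceroneogenesis, fell from 2750 ± 374 TPM in RT WT to 1037 ± 211 TPM in TN WT, and from 2436 ± 327 to 658.5 ± 84.5 TPM in Txnip-/-. Its log2 fold change was -1.42 in WT (adjusted p 0.000111 by limma) and -1.89 in Txnip-/- (1.25e-05). Pck1 was also the 1 pathway gene called lower in Txnip-/- at TN, with a log2 fold change of -0.64 and an adjusted p of 0.0463 that held in 1 of the 6 fits without a library, that without TN WT replicate 2, and was lost with no filter on low TPM (adjusted p 0.118). Cdkn1a, the cell cycle inhibitor p21, fell from 82.4 ± 16.8 to 21.4 ± 1.71 TPM at TN in WT (-1.88 on the log2 scale) and by a log2 fold change of -1.53 in Txnip-/-, and was higher in Txnip-/- at TN by 0.41 (adjusted p 0.0214), a call lost without TN WT replicate 2 or either of TN Txnip-/- replicates 1 and 2, in the fit of all 12 libraries (adjusted p 0.0705 by limma) and on the authors' log-scale values, where its log2 fold change of 0.27 was within the fold limit. Gadd45a, a stress-induced growth arrest gene, went the other way, from 3.58 ± 0.383 to 33.7 ± 4.19 TPM in Txnip-/- (2.92 on the log2 scale, adjusted p 8.57e-06), and was called in WT at 2.40 (4.66e-05). The summed TPM of the brown adipocyte markers fell in the same direction as Foxo1 and Pck1 between these groups.

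Among the genes around Akt, the pseudokinases of the Tribbles family diverged. Trib3, which binds Akt and is induced by stress, rose from 4.12 ± 0.224 to 23.8 ± 11.8 TPM at TN in WT (log2 fold change 2.15, adjusted p 0.000279 by limma), while Trib1 fell from 36.0 ± 14.6 to 16.8 ± 3.36 TPM (-1.0, 0.00528). Both were called in the same direction in Txnip-/-, Trib3 at 0.95 (0.0189) and Trib1 at -0.84 (0.0125). Trib2, of the same family, rose at TN in WT by 0.43 (adjusted p 0.0232 by limma). In Txnip-/- it went from 6.30 ± 0.616 to 8.79 ± 0.377 TPM. Sh2b2, an adaptor that links the insulin receptor to Cbl, fell at TN in Txnip-/- from 101.1 ± 14 to 51.7 ± 13.8 TPM (-0.98, 0.000405), and in WT by a log2 fold change of -0.87 (0.00117). Socs1, a further suppressor of cytokine and insulin signalling, rose from 0.537 ± 0.126 to 2.50 ± 0.603 TPM in Txnip-/- (1.17, 0.000197) and was also called in WT (0.74, 0.00416). Its log2 fold changes are likewise made smaller by the 1 added to the TPM. Of 16 genes of GLUT4 vesicle traffic, 4 were called higher at TN in WT and 3 in Txnip-/-, or 25.0% and 18.8%, where 31.4% and 30.9% of all genes were, and nothing is read from these counts about the list. Among them Stxbp3, a Munc18 protein of vesicle fusion, rose most in WT, from 10.96 ± 1.65 to 23.0 ± 0.804 TPM (1.01, 5e-05), and was called in Txnip-/- at 0.79 (7.69e-05). Slc2a4, which encodes GLUT4 and was named after its values were seen, had a log2 fold change of 0.35 at TN in WT (adjusted p 0.0313 by limma) with groups that overlapped. This call was lost with no filter on low TPM, with upper-quartile normalization (0.24), with median centring (0.16), without both RT libraries numbered 1 (0.22) and in 4 of the 6 fits that each leave out 1 library. In Txnip-/- the value for Slc2a4 was -0.008, and the difference between the genotypes, -0.35 (95% interval -0.72 to 0.016), did not pass the test. Of 14 genes of the Akt targets and mTORC1 arm, 1 was called higher and 0 lower at TN in WT, where 31.4% and 6.39% of all genes were, and a further 4 had an adjusted p under 0.05 and missed on the fold limit. In Txnip-/- 0 of 14 were called, where 30.9% and 8.27% of all genes were called higher and lower, but 6 of the 14 had an adjusted p under 0.05 and missed on the fold limit alone, the lowest being that of Gsk3a, a kinase that Akt inhibits (-0.31, adjusted p 0.0017 by limma, named after its values were seen). With no fold limit, 6278 of 12486 genes in WT and 6418 in Txnip-/- had an adjusted p under 0.05. Nothing is read from the counts of this list by adjusted p alone. The 1 gene called in WT was Deptor, an inhibitor of mTOR (0.62, 0.0231), whose call was lost under upper-quartile normalization, median centring and without RT WT replicate 1, RT WT replicate 2, TN WT replicate 2 or both RT libraries numbered 1.

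**Figure D5:**
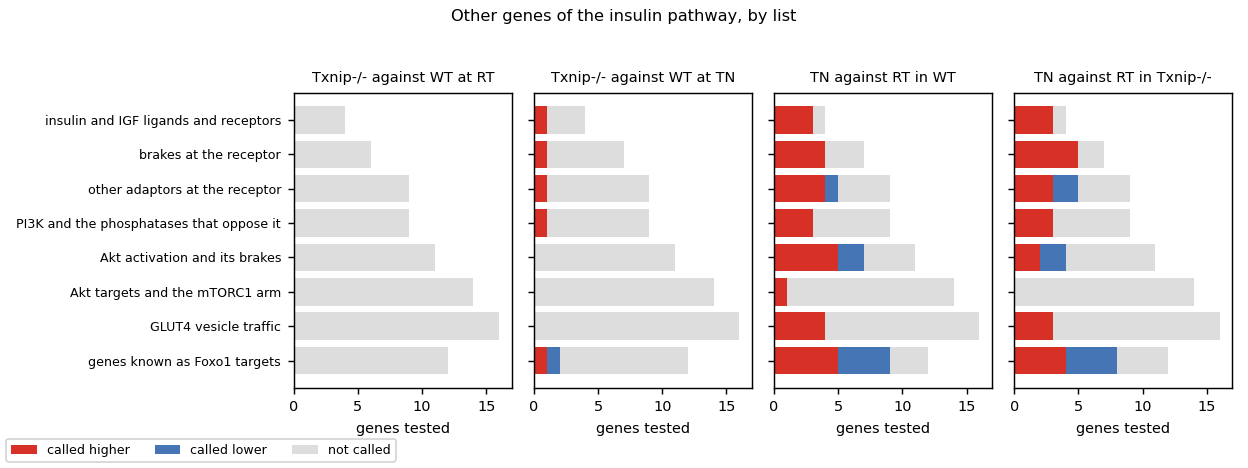
Number of genes tested (x axis) in 8 lists of other insulin pathway genes (y axis) in the 4 comparisons, split by colour into called higher, called lower and not called. No gene is called between the genotypes at RT, 6 are at TN, and 36 in WT and 31 in Txnip-/- are called between TN and RT.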

How the data were processed

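Interscapular BAT RNA of 12 mice was measured as poly-A RNA-seq. The authors mapped the reads with STAR 2.7.5a on the mm10 genome, counted them over the exons of 1 transcript per gene with HOMER 4.11.1, and deposited the TPM of each library, a value corrected for transcript length and sequencing depth. In the genes given here these TPM add up to 55.4 to 57.6% of their full sum. The authors also deposited log2-scale normalized values (transform not given in the sources used here) of the 6 libraries of each temperature. Beside them stand the fold changes and p-values from the authors' DESeq2 test, which were left unused. These tables hold another transcript than the TPM for 3 of the 9 members at RT (Pik3r1, Akt1 and Tbc1d1) and 4 at TN (also Akt2). Unused columns of single samples numbered 0. The kit is not named as strand-specific, and the use of strand in counting is not given in the sources used here. DNA windows came from RefSeq (GRCm38.p6), and exon overlaps from GENCODE on mm10.

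The scale log2(TPM + 1) was used, which makes fold changes smaller at low TPM. Testing kept genes whose TPM averaged 1 or more over the libraries of a comparison and was done in R 4.3.3 with limma 3.58.1 (empirical Bayes with a trend, Benjamini-Hochberg over all genes tested). Genotypes were compared on the 6 libraries of a temperature, and temperature, mean genotype effect and interaction on all 12 with 4 group means. A call needed a log2 fold change beyond 0.32 in either direction besides an adjusted p under 0.05, the interaction the adjusted p alone. Ratios of paired genes were tested by exact permutation in Python 3.11.15 with numpy 2.4.6. On simulated data, 200 of 8903 genes were changed by 1 on the log2 scale. Of these 200, 91% were recovered for the genotypes at RT and 95.5% at TN. For TN against RT 95.5% were recovered in WT and 93.5% in Txnip-/-. The values were 98% for the mean genotype effect and 86% for the interaction. Recovery of smaller changes, such as those of Akt2 and Irs1 between the genotypes at TN, was not tested. Recovery in genes outside these 8903 was not tested either.

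The members, the pathway lists and the marker lists were chosen with earlier results of these data known. Named are the 9 members, each listed gene called between the genotypes (at most 3 of each sign per list), the called gene of each list with the largest change of each sign between TN and RT, and the 2 genes most like each member. Alternatives were a pseudocount of 0.1, no filter, upper-quartile normalization, median centring, no fold limit, the replicate block, all 12 libraries in 1 fit, the authors' log-scale values, each library left out and, added after the data were seen, both RT libraries numbered 1 left out. DESeq2 or other count tests were not run, since counts per gene were not used here.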

Additional observations from a re-analysis of the deposited data

Results flagged for a closer look

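The log2 fold change of Txnip between Txnip-/- and WT differed between the temperatures, by -2.09 for TN minus RT (SE 0.20, adjusted p = 0.00344 by limma, the 1 gene of 12486 that passed the interaction test). It was -4.36 at RT and -6.46 at TN. Txnip rose at TN in WT, from 612.8 to 1131 TPM in the mean of 3 libraries, and the reads left on it in Txnip-/- fell from 29.02 to 11.98 TPM. With each library left out the difference stayed between -2.22 and -1.95. No value of the 9 insulin signalling genes met the same condition.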

How the results depend on the processing

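The calls of Foxo1 at TN in both genotypes and of Insr and Tbc1d4 at TN in Txnip-/- were kept under every alternative run. Of 810 alternative values of member log2 fold changes 741 kept their direction and side of the threshold, 14 became calls and 55 changed sign, and no member value with a call changed sign. With upper-quartile normalization 2 members were called at TN in WT, and the log2 fold change became -0.025 for Irs1 in WT and -0.0097 for Irs2 and -0.053 for Akt1 in Txnip-/- between TN and RT, and -0.011 for Akt1 at RT and -0.0042 for the mean genotype effect on Tbc1d4. With median centring 2 members were called at TN in WT, and the same values became -0.12, -0.13, -0.16, -0.016 and -0.011, with -0.093 for Tbc1d1 at TN in Txnip-/-. On the authors' log-scale values Akt1 at RT was -0.027. With no filter on low TPM 2 pathway genes (Igf1 and Cdkn1a) were called between the genotypes at TN, where 22494 genes shared the adjustment and 621 were called. With no fold limit 16 of 82 pathway genes were called for the mean genotype effect, where 1790 of 12486 genes were.

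Without both RT libraries numbered 1, a choice made after the data were seen, 3 members were called at TN in WT (Foxo1, Irs1 and Tbc1d4) and 4 pathway genes for the mean genotype effect. Of all 12559 genes tested, 4882 were called at TN in WT and 783 for the mean genotype effect. Between the genotypes at RT the log2 fold changes became -0.001 for Pik3r1, -0.0301 for Akt1, 0.014 for Tbc1d4 and -0.054 for Foxo1, the mean genotype effects 0.14 for Irs1 and -0.064 for Foxo1, the TN against RT values in WT 0.21 for Irs2 and 0.0083 for Akt2, and the genotype difference in Akt2 over Akt1 -0.20 (exact p = 0.0667).

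With each library left out in turn, members called ranged from 1 to 3 between TN and RT in WT and from 3 to 5 in Txnip-/-, and pathway genes called from 0 to 1 between the genotypes at RT, 0 to 6 at TN and 2 to 8 for the mean effect. Over all genes the calls in the latter 3 comparisons ranged from 2 to 159, 456 to 1005 and 847 to 1019. Log2 fold changes that changed sign ran, at RT, from -0.59 to 0.11 for Irs1, -1.34 to 0.24 for Irs2, -0.23 to 0.62 for Pik3r1, -0.033 to 0.09 for Akt1 and -0.38 to 0.11 for Tbc1d4. At TN they ran from -0.12 to 0.033 for Insr, -0.11 to 0.27 for Irs2, -0.0061 to 0.11 for Tbc1d1 and -0.19 to 0.0036 for Foxo1. Between TN and RT they ran from -0.17 to 0.53 for Irs1, -1.37 to 0.21 for Irs2, -0.12 to 0.013 for Akt1 and -0.041 to 0.027 for Akt2 in WT, and from -0.48 to 0.64 for Irs2 and -0.0048 to 0.082 for Akt1 in Txnip-/-. The mean genotype effect ran from -0.14 to 0.22 for Irs1, -0.63 to 0.17 for Irs2, -0.12 to 0.13 for Tbc1d4 and -0.011 to 0.21 for Foxo1, and the interaction from -0.15 to 1.43 for Irs2. Differences in log2 ratio ran from -1.04 to -0.57 for Irs2 over Irs1 by temperature, -0.28 to -0.17 and -0.17 to -0.061 for Akt2 over Akt1 by genotype and temperature, and -0.077 to 0.22 for Tbc1d4 over Tbc1d1 by genotype. The cause of these shifts was not tested.

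Same-numbered RT libraries of the 2 genotypes deviated from their group means with a correlation over genes of 0.297, -0.022 and 0.21, and same-numbered TN libraries of 0.042, 0.023 and -0.036. Different-numbered libraries had values from -0.301 to 0.159 at RT and from -0.083 to 0.070 at TN. The labels state no pairing, and the numbers were not read as pairs. With the replicate block 0 members were called in either genotype comparison, and 0 pathway genes at RT and 6 at TN. Calls over all genes went from 178 to 100 at RT and from 1116 to 977 at TN. At RT the libraries numbered 1 and 3 were closest to their own number and those numbered 2 were not, and what same-numbered libraries share was not tested. TPM keep no read depth per gene, and the spread between the 3 libraries of a group sets what could be shown.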
